A study of Mus musculus with 2 samples.

Results

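The 33 genes described here encode the glutamate receptors, their auxiliary subunits and the vesicular glutamate transporters of the mouse. They were taken by symbol from the gene table of the study, which lists 33938 genes. The rule uses symbols and no measured value, but the set was chosen with earlier results of these data known. They comprise 5 NMDA receptor subunits (Grin1, Grin2a, Grin2b, Grin2d and Grin3a), 4 AMPA receptor subunits (Gria1 to Gria4), 5 kainate receptor subunits (Grik1 to Grik5) and the delta subunit Grid1. The others are 6 metabotropic receptors (Grm2 to Grm5, Grm7 and Grm8), 6 AMPA receptor auxiliary subunits of the Cacng family, the kainate auxiliary subunits Neto1 and Neto2, the cornichons Cnih2 and Cnih3, and the transporters Slc17a6 and Slc17a7. Each of the 33 symbols stood on 1 line of the gene table.

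Single-nucleus RNA-seq with droplet capture of 3′ ends was carried out on embryonic mouse neocortex, with 1 library labelled MEN1-NCKO and 1 labelled MEN1-F/F. Beyond the genotypes MEN1-NCKO and MEN1-F/F, no source used here gives the embryonic age, the number of embryos behind a library, the Cre driver or the deleted part of Men1. With no replicate of either label no test was possible, so all intervals printed are 95% intervals of counting error within a library, and every difference between labels is a difference between these 2 libraries. After filtering, 9807 nuclei with 41216292 UMIs remained in the NCKO-labelled library and 6130 nuclei with 26835628 UMIs in the F/F library, with medians of 3579 and 3665 UMIs per nucleus.

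The gene named in the label, Men1, had no lower level in the NCKO-labelled library. It measured 13.5 CPM (UMIs of the gene per 1000000 UMIs, interval 12.4 to 14.7) there and 10.4 CPM (9.18 to 11.7) in the F/F library. A 3′ tag outside the deleted part does not check a deletion, so the value neither bears out nor contradicts the label MEN1-NCKO, and every difference given for that library rests on its label. The 2 libraries shared 15 barcodes, of 10750 deposited for the NCKO-labelled and 6477 for the F/F library.

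Nuclei were clustered without the 33 genes and the clusters were called by markers that hold none of them. Of the classes, 10 had 100 nuclei or more in both libraries: radial glia-like, eminence progenitor-like, migrating excitatory neuron-like, upper-layer-like, layer 5-like, layer 6-like, subplate-like, MGE-derived interneuron-like, CGE-derived interneuron-like and striatal-like nuclei (MGE and CGE are the medial and caudal ganglionic eminences). The striatal-like and eminence progenitor-like populations held 1007 and 466 nuclei of the NCKO-labelled library and 679 and 355 of the F/F library, so the dissected tissue was not neocortex alone. Unnamed clusters held 14.9% and 12.2% of the nuclei and are not described here. Migrating-like nuclei were shallower than the others of their lineage, with medians of 2257 and 2725 UMIs, against 4099 and 4310 in upper-layer-like nuclei.

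Glutamate is the main fast excitatory transmitter of the cortex. It is loaded into synaptic vesicles by vesicular transporters, of which Slc17a6 (VGLUT2) and Slc17a7 (VGLUT1) serve most excitatory neurons. AMPA and kainate receptors carry fast currents, NMDA receptors need glutamate together with membrane depolarization and pass calcium, and metabotropic receptors act through G proteins. The AMPA, kainate and NMDA receptors are tetramers whose subunits are exchanged as neurons mature. Auxiliary subunits of the Cacng, Cnih and Neto families set the trafficking and kinetics of AMPA and kainate receptors.

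The upstream sequences of the transporters are shown because Slc17a6 and Slc17a7 differed in opposite directions between migrating-like and layer 6-like nuclei. The 250 bases before the RefSeq start site (GRCm38.p6, plus strand) lie at chr7:51621580-51621829 for Slc17a6 (the more upstream of its RefSeq starts) and chr7:45163671-45163920 for Slc17a7, and capitals mark CAGNTG, a core sequence bound by basic helix-loop-helix factors such as the neurogenins.
Slc17a6: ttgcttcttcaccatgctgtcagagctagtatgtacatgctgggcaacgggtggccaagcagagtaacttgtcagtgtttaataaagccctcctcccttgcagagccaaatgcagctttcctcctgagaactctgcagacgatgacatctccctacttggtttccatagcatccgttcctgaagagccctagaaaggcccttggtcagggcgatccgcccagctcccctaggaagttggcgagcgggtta
Slc17a7: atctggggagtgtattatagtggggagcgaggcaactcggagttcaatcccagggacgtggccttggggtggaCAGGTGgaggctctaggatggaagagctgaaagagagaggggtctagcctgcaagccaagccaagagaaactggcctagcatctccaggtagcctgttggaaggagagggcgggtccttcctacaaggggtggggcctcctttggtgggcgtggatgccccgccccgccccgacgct
The Slc17a6 window held no CAGNTG and the Slc17a7 window held 1, at position -177 from the start site. Both strands were searched, and 44.8% of all 32817 RefSeq windows of this length held it. The GC content of the windows was 53.2% for Slc17a6 and 61.2% for Slc17a7. Of the 33 genes, 22 had a RefSeq window, and 10 of these 22 held the pattern in at least 1 window.

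Across the 10 populations, 25 of the 33 genes had their highest level in the same population in both libraries. Striatal-like, layer 6-like and MGE-derived-like nuclei each held the highest level of 5 genes. Gria2 and Slc17a6 were the 2 genes whose highest level among these populations lay in migrating-like nuclei. Levels are given as CPM of UMIs summed over the nuclei of a population and are compared for 1 gene at a time, since 3′ capture and gene length differ between genes.

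**Figure D1:**
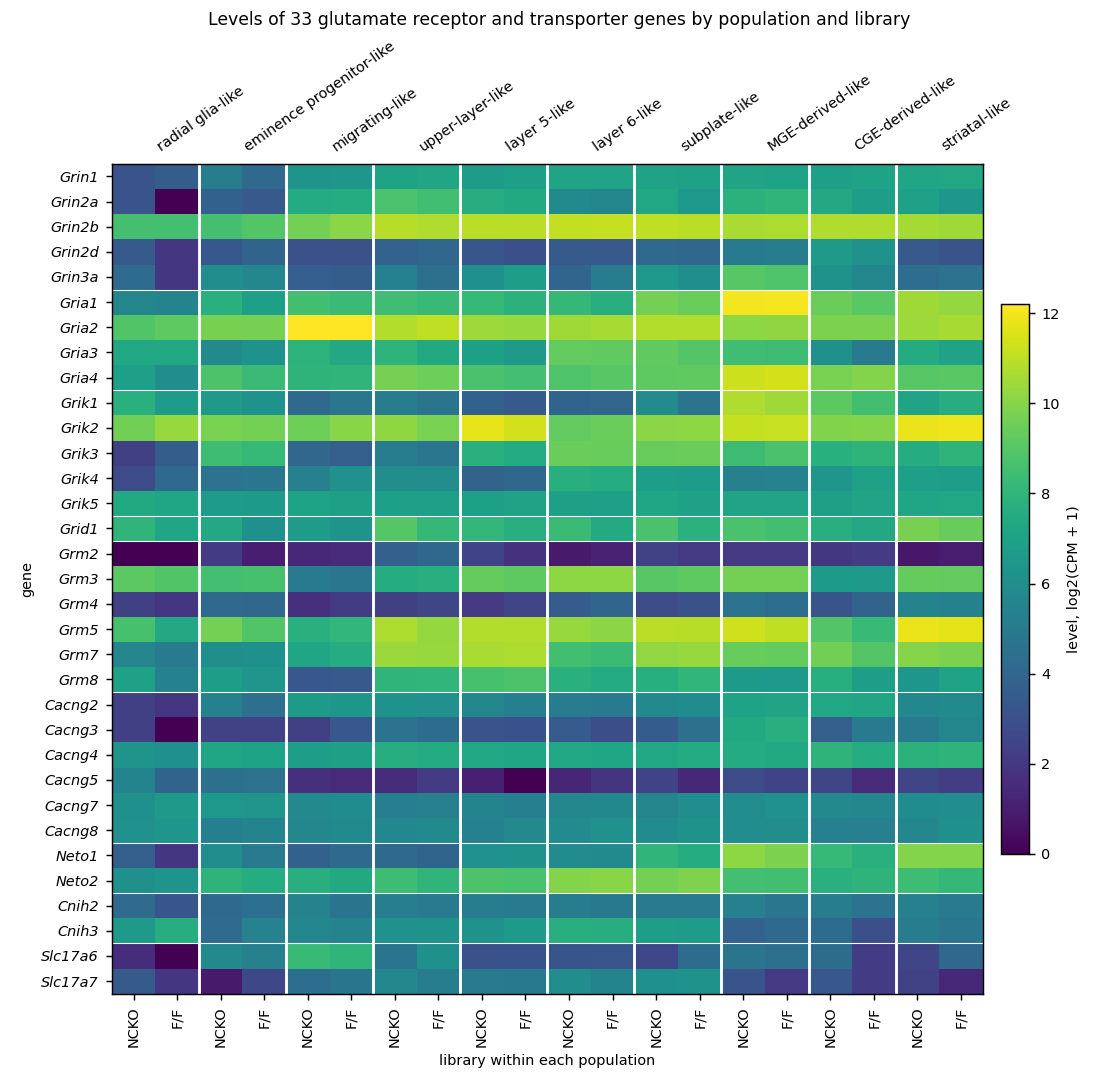
Levels of the 33 genes (rows) in 10 populations, each with the NCKO-labelled library left of the F/F library; colour is log2(CPM + 1) of summed UMIs. The 2 columns of a population look alike for most genes, and the columns of different populations differ, as for Grik3 between layer 6-like nuclei (678 and 668 CPM) and migrating-like nuclei (15.6 and 11.9 CPM).

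To describe the change of subunits from newborn to settled neurons, upper-layer-like, layer 5-like and layer 6-like nuclei were each set against migrating-like nuclei within the same library. The 3 comparisons share the migrating-like nuclei. A gene was called when it differed at least 1.5-fold on (CPM + 5) in the same direction in both libraries and had at least 50 UMIs over the 2 populations in each. In upper-layer-like nuclei 13 of 31 measured genes were called higher and 2 lower, where 8.82% and 6.62% of all 10808 genes were. In layer 5-like nuclei 12 of 28 were called higher and 5 lower (11.0% and 14.5% of all 7792 genes). In layer 6-like nuclei 15 of 28 were called higher and 4 lower (9.94% and 10.7% of all 8786 genes).

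The median log2 ratio of the measured genes in upper-layer-like nuclei was 0.76 in the NCKO-labelled library and 0.56 in the F/F library, beside -0.16 and -0.11 over all genes. Long genes were called more often in general: of 2010 genes of at least 100 kb, 21.9% were called higher and 13.0% lower in upper-layer-like nuclei. Of the 33 genes, 19 are that long, and 10 of these were called higher and 1 lower there. In layer 5-like nuclei the counts for these 19 were 11 and 4, beside 25.4% and 17.3% of long genes, and in layer 6-like nuclei 12 and 3, beside 23.4% and 17.8%.

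Over the 3 settled populations, 7 genes were higher in each: Grin2b, Grik3, Grid1, Grm3, Grm5, Grm7 and Grm8. Gria2 and Slc17a6 were lower in all 3. Of the 28 genes measured in all 3, these were 7 and 2, where 5.44% and 5.08% of the 7700 genes measured in all 3 were called higher and lower in each. Another 6 were higher in 2 populations (Grin1, Grin3a, Gria4, Neto1, Neto2 and Cnih3) and 7 in 1. Cacng2 was lower in 2. Grin2a, Gria3 and Grik4 were higher in one settled population and lower in another. The 10 genes that were called in none of the 3 were Grin2d, Gria1, Grik1, Grik5, Grm4, Cacng4, Cacng5, Cacng7, Cacng8 and Cnih2.

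**Figure D2:**
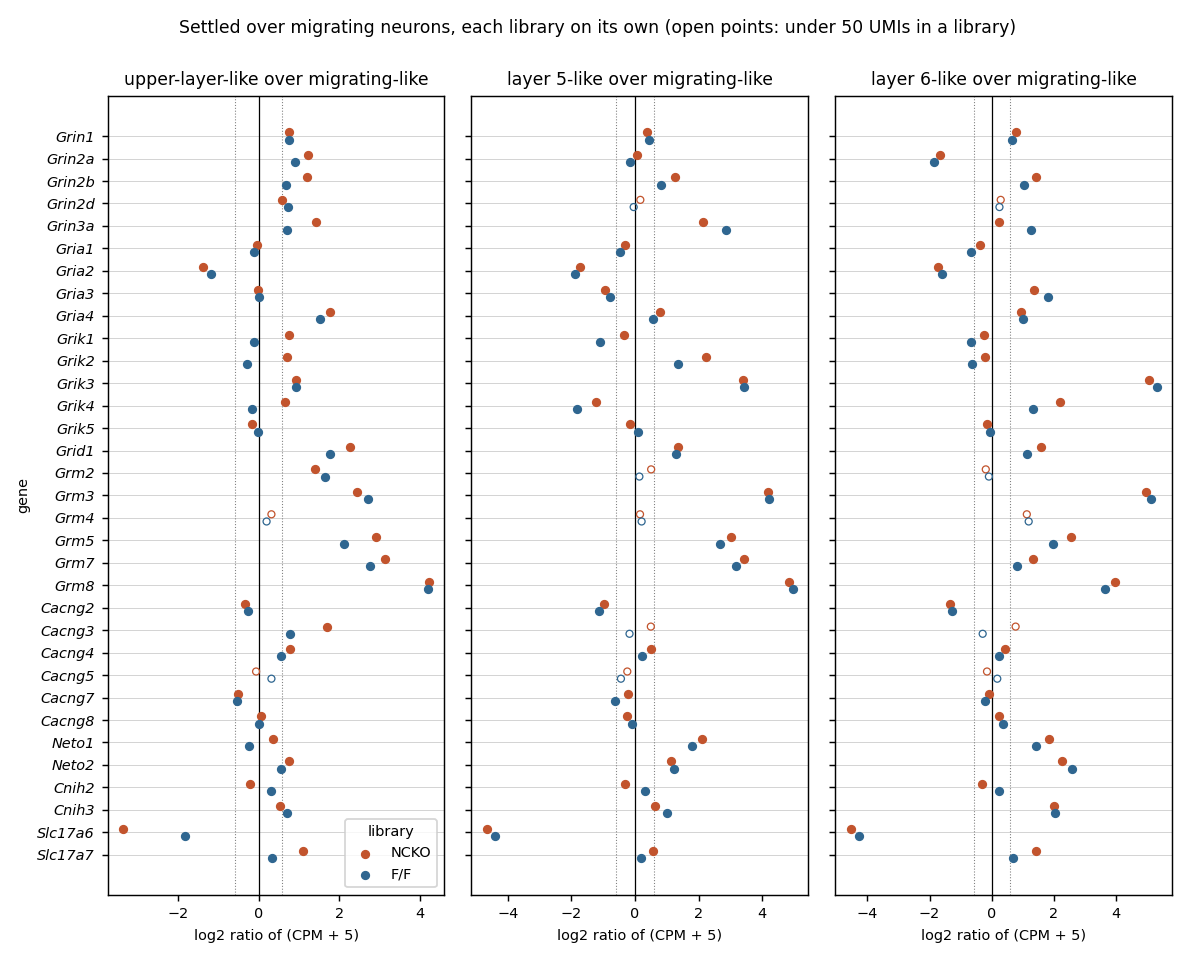
Log2 ratio of (CPM + 5) for each gene (rows) in settled over migrating-like nuclei, 1 panel per settled population; each library is its own point, open where a library had under 50 UMIs, and dotted lines mark 1.5-fold. Gria2 and Slc17a6 lie left of the lower line in all 3 panels, and Grm8 lies right of the upper line in all 3.

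One of the 4 clusters joined as migrating-like stood apart from the others and bears on several of these values. It held 67 nuclei of the NCKO-labelled library and 63 of the F/F library, and Fam163a and Slit3 led its genes. Its Grin2a level was 947 and 951 CPM, whereas in the other 3 migrating-like clusters Grin2a lay between 8.08 and 91.4 CPM in the NCKO-labelled library and between 14 and 54.8 CPM in the F/F library. Without this cluster, a setting chosen after seeing the data, the counts were 16 higher and 2 lower in upper-layer-like nuclei (10.1% and 7.17% of all genes), 14 and 4 in layer 5-like nuclei (12.1% and 15.3%) and 15 and 3 in layer 6-like nuclei (11.1% and 11.6%). Grin2d, Neto2 and Cnih3 were then called higher in upper-layer-like nuclei as well, and Grin2a and Gria4 in layer 5-like nuclei. The lower calls of Grik4 in layer 5-like and Grin2a in layer 6-like nuclei were lost. Where the ratio of a called gene moved by over 1.5 times, both values are given beside the gene.

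Among the NMDA receptor subunits, Grin2b was the one called higher in every settled population. Grin2b, whose product dominates NMDA receptors before birth, measured 385 and 374 CPM in radial glia-like nuclei of the NCKO-labelled and F/F libraries. Intermediate progenitor-like nuclei had 186 and 261 CPM and migrating-like nuclei 820.1 and 1089 CPM. It measured 1904 and 1749 CPM in upper-layer-like, 1955 and 1947 CPM in layer 5-like and 2197 and 2223 CPM in layer 6-like nuclei. Both libraries thus placed every settled population above the migrating-like nuclei and the progenitors.
The ratio of upper-layer-like over migrating-like nuclei for Grin2b was 2.32 (2.20 to 2.45) in the NCKO-labelled library and 1.61 (1.53 to 1.69) in the F/F library. Grin1, the subunit that every NMDA receptor needs, measured 136 against 78.2 CPM in the NCKO-labelled library and 148 against 85.8 CPM in the F/F library in upper-layer-like against migrating-like nuclei, a ratio of 1.74 and 1.72. It was called higher in layer 6-like nuclei too (138 and 138 CPM), and in layer 5-like nuclei it measured 104 and 117 CPM, which was not called. Grin1os, which overlaps Grin1, had 275 UMIs against 9899 for Grin1, and reads of the 2 cannot be told apart if the counting ignored strand.

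Grin2a, the subunit that joins NMDA receptors as cortical neurons mature after birth, was called higher in upper-layer-like and lower in layer 6-like nuclei, and both values rest partly on the migrating-like cluster led by Fam163a and Slit3. It measured 431 and 359 CPM in upper-layer-like nuclei, 192 and 169.8 CPM in layer 5-like nuclei and 53.7 and 48.1 CPM in layer 6-like nuclei, beside 181 and 189 CPM in migrating-like nuclei. The ratio of upper-layer-like nuclei over migrating-like nuclei was 2.38 (2.12 to 2.67) in the NCKO-labelled library and 1.90 (1.69 to 2.14) in the F/F library, and that of layer 6-like nuclei was 0.296 (0.250 to 0.350) in the NCKO-labelled library and 0.255 (0.207 to 0.311) in the F/F library.
Without that cluster the call in layer 6-like nuclei ended and layer 5-like nuclei were called higher. Migrating-like nuclei then had 66.2 and 43.3 CPM of Grin2a, the upper-layer-like ratio was 6.51 (5.36 to 8.0) and 8.29 (6.43 to 10.9), the layer 5-like ratio was 2.90 (2.36 to 3.61) and 3.92 (2.96 to 5.27), and the layer 6-like ratio was 0.812 (0.643 to 1.03) and 1.11 (0.818 to 1.53). The order of the settled populations does not use migrating-like nuclei: upper-layer-like above layer 5-like above layer 6-like, with no overlap of the intervals in either library. This order does not hold for every layer 6-like cluster. The cluster led by Rspo2 and Npy had 183 (149 to 223) and 114 (82.4 to 155) CPM of Grin2a, the first near the layer 5-like level. The largest layer 6-like cluster, led by Hs3st4 and Htr1f, had 33.2 and 33.1 CPM.

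As a share of the UMIs of Grin2a, Grin2b and Grin2d, Grin2a made up 18.4% and 16.9% in upper-layer-like, 8.91% and 8.0% in layer 5-like and 2.38% and 2.11% in layer 6-like nuclei of the NCKO-labelled and F/F libraries. Grin2b held the rest of each family almost entirely, from 81.1% and 82.4% in upper-layer-like to 97.2% and 97.5% in layer 6-like nuclei. These shares depend on the capture of each gene's 3′ end, so only their differences between populations can be read.

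Grin3a, a subunit that lowers the calcium permeability of NMDA receptors, had low levels in the named excitatory populations. It was among the leading genes of an unnamed cluster led by Nr4a2 and Zfp804b, which is not described here. Grin3a was called higher in upper-layer-like nuclei (40.2 and 21.4 CPM) and layer 5-like nuclei (69.1 and 114 CPM) than in migrating-like nuclei (11.7 and 11.3 CPM). The upper-layer value was not stable: with all deposited barcodes the log2 ratio was -0.82 in the NCKO-labelled library and -0.48 in the F/F library, and with the 33 genes kept in the clustering it was -0.63 and -0.26. In layer 5-like nuclei the NCKO-labelled value was -0.24 at a coarser clustering (resolution 0.5). Grin2d, a subunit typical of interneurons, measured 13.1 and 15.2 CPM in upper-layer-like nuclei and was called in no settled population. Kdelr1, which overlaps Grin2d on the opposite strand, had 3826 UMIs against 1305. Part of the Grin2d level may belong to it if the counting ignored strand.

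Among the AMPA receptor subunits, Gria2 was the one called lower in every settled population. Gria2, whose edited product makes AMPA receptors impermeable to calcium, measured 4665 and 4742 CPM in migrating-like nuclei. Intermediate progenitor-like nuclei had 1087 and 1248 CPM, and radial glia-like nuclei 477 and 584 CPM. In settled nuclei it measured 1794 and 2082 CPM (upper-layer-like), 1389 and 1286 CPM (layer 5-like), 1411 and 1555 CPM (layer 6-like) and 1766 and 1805 CPM (subplate-like). Migrating-like nuclei thus had the highest level in both libraries, and no settled population overlapped with it.
The ratio of upper-layer-like over migrating-like nuclei for Gria2 was 0.385 (0.375 to 0.395) in the NCKO-labelled library and 0.439 (0.427 to 0.451) in the F/F library. In layer 5-like nuclei it was 0.298 (0.287 to 0.308) in the NCKO-labelled library and 0.271 (0.258 to 0.285) in the F/F library. Within the upper-layer-like nuclei, the cluster led by Hs6st2 and Bcl6 had 3171 and 3432 CPM of Gria2, between the migrating-like level and that of the whole upper-layer-like population.

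Gria4, a subunit with fast kinetics, went the other way in upper-layer-like nuclei, with 828 against 241 CPM in the NCKO-labelled library and 743 against 256 CPM in the F/F library in upper-layer-like against migrating-like nuclei. The ratio was 3.44 (3.12 to 3.80) in the NCKO-labelled library and 2.90 (2.63 to 3.21) in the F/F library. It was also called higher in layer 6-like nuclei, at ratios of 1.92 and 2.02.
Gria3, an X-linked subunit, separated the deep layers. It measured 622 and 597 CPM in layer 6-like nuclei and 121 and 95.1 CPM in layer 5-like nuclei, beside 238 and 167 CPM in migrating-like nuclei, and was thus called higher in the one and lower in the other. The lower value in layer 5-like nuclei turned at resolution 0.5, where its log2 ratio was 0.03 in the NCKO-labelled library and 0.53 in the F/F library. Upper-layer-like nuclei stood at 235 and 169 CPM, close to the migrating-like level.

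Gria1, the subunit most tied to activity-driven insertion at synapses, was called in none of the 3 settled populations. It measured 353 and 298 CPM in upper-layer-like nuclei and 361 and 323 CPM in migrating-like nuclei, and the interval of the ratio included 1 in both libraries. Without the Fam163a and Slit3 cluster, where Gria1 measured 1177 and 947 CPM, the ratio was 1.48 (1.33 to 1.65) in the NCKO-labelled library and 1.46 (1.29 to 1.66) in the F/F library, short of a call in both. Subplate-like nuclei had more, at 807 and 674 CPM.

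By share, Gria2 made up 75.8% and 71.5% of the AMPA receptor UMIs in intermediate progenitor-like and 84.7% and 86.4% in migrating-like nuclei. In the settled populations it made up 55.9% and 63.2% (upper-layer-like), 62.5% and 64.5% (layer 5-like) and 50.8% and 54.1% (layer 6-like). The Gria4 share was 25.8% and 22.6% in upper-layer-like against 4.37% and 4.67% in migrating-like nuclei. The Gria3 share was 22.4% and 20.8% in layer 6-like against 4.32% and 3.04% in migrating-like nuclei. In both libraries, then, the Gria2 share was higher in migrating-like nuclei than in these settled populations. The Gria4 share was higher in upper-layer-like, and the Gria3 share in layer 6-like, than in migrating-like nuclei.

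**Figure D3:**
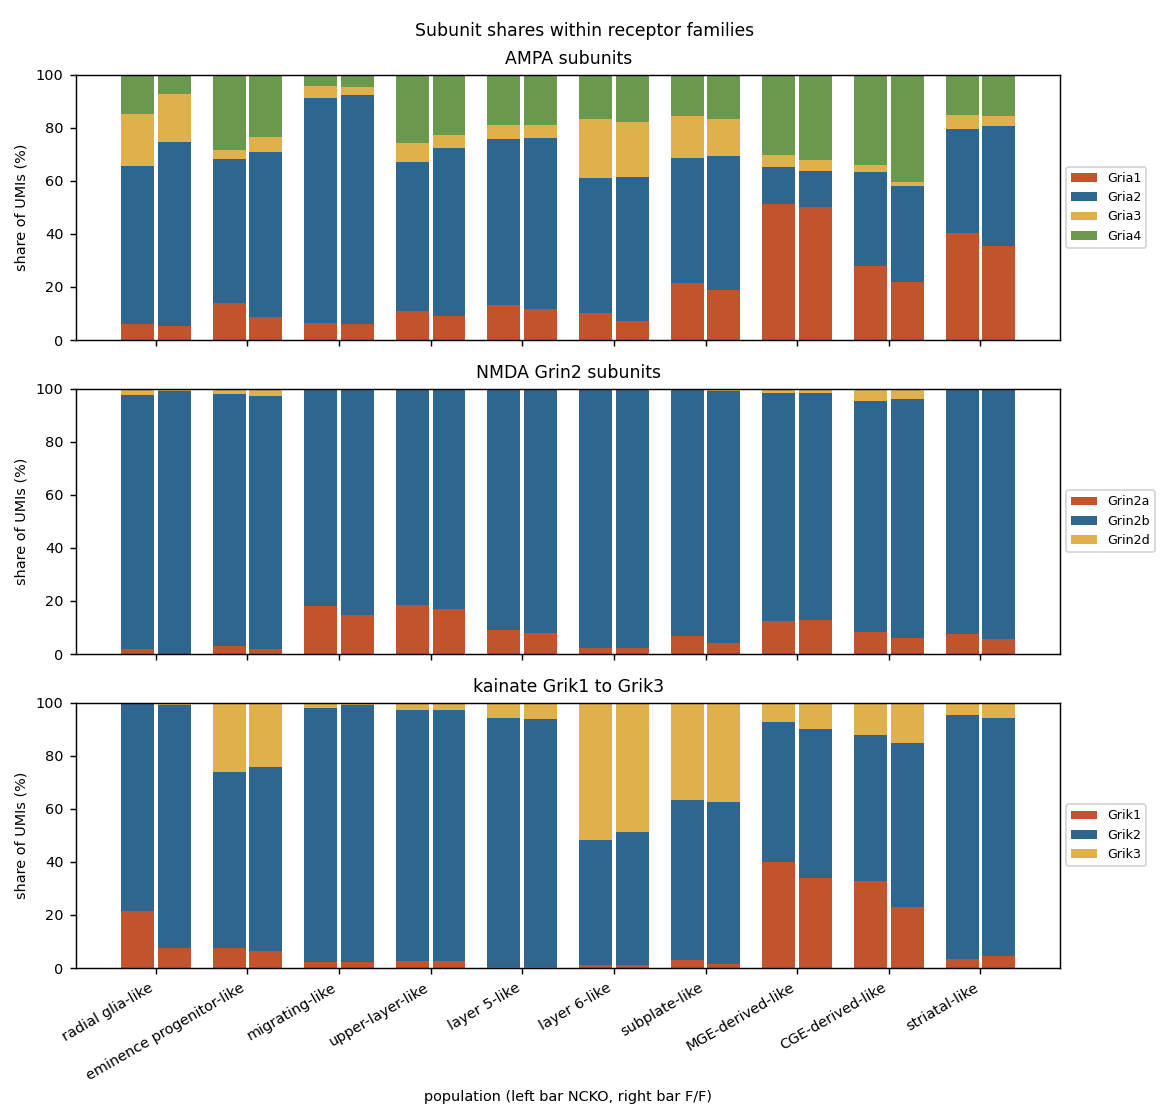
Shares of UMIs (%) among the AMPA subunits (top), the Grin2 subunits (middle) and Grik1 to Grik3 (bottom) in 10 populations, left bar NCKO-labelled, right bar F/F. Gria2 fills most of the bar in migrating-like nuclei (84.7% and 86.4%) and little of it in MGE-derived-like nuclei (14.1% and 13.6%), and Grik3 stands out in layer 6-like nuclei (51.6% and 48.8%).

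Of the AMPA receptor auxiliary subunits, few were called. Cacng2 (stargazin), which brings AMPA receptors to the synapse, was lower in layer 5-like nuclei (47.4 and 37.7 CPM) and layer 6-like nuclei (35.4 and 33.2 CPM) than in migrating-like nuclei (98.3 and 88.2 CPM). Cacng3, its close relative, was called higher in upper-layer-like nuclei, at 24 and 18.9 CPM beside 3.91 and 8.93 CPM in migrating-like nuclei, where it had 7 and 15 UMIs. Cacng4, which had the most UMIs of the Cacng genes, measured 192 and 181 CPM in upper-layer-like and 111 and 122 CPM in migrating-like nuclei, at ratios of 1.74 and 1.49, and was not called.
Cacng5 was sparse, with 428 UMIs in all nuclei. Intermediate progenitor-like nuclei had 121 and 56.2 CPM, radial glia-like nuclei 44.1 and 14.2 CPM, and it measured at most 4.59 CPM in the migrating-like and settled excitatory populations. Cacng7 and Cacng8, called in no settled population, lay between 35.9 and 96.3 CPM in the 10 populations of both libraries. Cacng8 overlaps Gm44151 on the opposite strand, which had 10064 UMIs against 4433, so the Cacng8 level is uncertain if the counting ignored strand.
Cnih3, a cornichon that escorts AMPA receptors out of the endoplasmic reticulum, measured 206 and 193 CPM in layer 6-like nuclei and 74.5 and 92 CPM in layer 5-like nuclei, beside 46.9 and 42.9 CPM in migrating-like nuclei. The layer 6-like ratio was 4.39 (3.51 to 5.56) in the NCKO-labelled library and 4.49 (3.51 to 5.82) in the F/F library. Without the Fam163a and Slit3 cluster it was 8.22 (5.97 to 11.6) in the NCKO-labelled library and 6.04 (4.45 to 8.37) in the F/F library, and the layer 5-like ratio was 2.97 and 2.88. Cnih2 was called in none, and measured 36.7 and 32.5 CPM in upper-layer-like against 43 and 25 CPM in migrating-like nuclei.

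The kainate receptor subunits differed between the layers. Grik3, a low-affinity subunit, measured 678 and 668 CPM in layer 6-like, 659 and 691 CPM in subplate-like, 215 and 179 CPM in layer 5-like and 34.2 and 27 CPM in upper-layer-like nuclei, beside 15.6 and 11.9 CPM in migrating-like nuclei. The layer 6-like ratio was 43.4 (29.9 to 65.4) in the NCKO-labelled library and 56.1 (36.2 to 92) in the F/F library. It made up 51.6% and 48.8% of the Grik1 to Grik3 UMIs in layer 6-like nuclei, 36.6% and 37.7% in subplate-like nuclei and 2.07% and 1.09% in migrating-like nuclei.
Grik2, the subunit with the most UMIs of the family, was instead high in layer 5-like nuclei, at 3428 and 2687 CPM, against 721 and 1055 CPM in migrating-like nuclei. The ratio was 4.76 (4.49 to 5.04) in the NCKO-labelled library and 2.55 (2.41 to 2.69) in the F/F library. In upper-layer-like nuclei the libraries differed in direction, with ratios over migrating-like nuclei of 1.63 and 0.816. Without the Fam163a and Slit3 cluster both were above 1, at 2.29 (2.13 to 2.47) in the NCKO-labelled library and 1.07 (1.01 to 1.14) in the F/F library, and the gene was not called.
Grik4, a high-affinity subunit that needs a low-affinity partner, was higher in layer 6-like nuclei (199.6 and 188 CPM) and lower in layer 5-like nuclei (13.8 and 16.7 CPM) than in migrating-like nuclei (39.1 and 71.5 CPM). Of the Grik4 and Grik5 UMIs, Grik4 made up 62.4% and 61.5% in layer 6-like and 10.3% and 11.4% in layer 5-like nuclei. The lower call in layer 5-like nuclei was lost without the Fam163a and Slit3 cluster, at log2 ratios of -0.33 and -1.37. The layer 6-like ratio of Grik4 was 5.11 (4.0 to 6.61) in the NCKO-labelled library and 2.63 (2.16 to 3.24) in the F/F library, and without that cluster 10.7 (7.41 to 16.1) in the NCKO-labelled library and 3.69 (2.88 to 4.78) in the F/F library. Grik5, its relative, was nearly level across the settled populations, at 119 and 119.6 CPM, 121 and 129 CPM and 120.3 and 118 CPM in upper-layer-like, layer 5-like and layer 6-like nuclei. Grik1 was low in every named excitatory population, between 9.88 and 57.6 CPM, and was called in none of the 3 settled ones. It was among the leading genes of unnamed clusters, which are not described here.

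Neto2, an auxiliary subunit that changes the gating of kainate receptors, measured 986 and 1055 CPM in layer 6-like, 796 and 920.3 CPM in subplate-like and 444 and 411 CPM in layer 5-like nuclei, against 200.4 and 172 CPM in migrating-like nuclei. The layer 6-like ratio was 4.92 (4.42 to 5.49) in the NCKO-labelled library and 6.13 (5.43 to 6.94) in the F/F library. Its relative Neto1 was called higher in layer 5-like nuclei (72.2 and 74.7 CPM) and layer 6-like nuclei (58.9 and 56.9 CPM), beside 12.8 and 17.9 CPM in migrating-like nuclei. Layer 6-like nuclei thus had the highest Grik3 and Neto2 levels of the 3 settled populations in both libraries, and Grik4 as well.

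Grid1, the delta receptor subunit, binds secreted cerebellins at synapses and is not opened by glutamate. It measured 507 and 278 CPM in upper-layer-like, 267 and 199 CPM in layer 5-like and 319.7 and 177 CPM in layer 6-like nuclei, against 102 and 78.6 CPM in migrating-like nuclei. The upper-layer-like ratio was 4.96 (4.28 to 5.78) in the NCKO-labelled library and 3.53 (2.96 to 4.25) in the F/F library. Without the Fam163a and Slit3 cluster it was 6.16 (5.17 to 7.41) in the NCKO-labelled library and 5.84 (4.58 to 7.57) in the F/F library, and the ratios in layer 5-like (3.25 and 4.18) and layer 6-like nuclei (3.89 and 3.73) were higher too. In each of these settled populations the NCKO-labelled value was above the F/F value.

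Of the 6 metabotropic receptors, Grm3, Grm5, Grm7 and Grm8 were higher in every settled population. Grm5, a group I receptor coupled to phospholipase C, measured 1671 and 1223 CPM in upper-layer-like, 1801 and 1773 CPM in layer 5-like and 1299 and 1101 CPM in layer 6-like nuclei, against 217 and 275 CPM in migrating-like nuclei. The upper-layer-like ratio was 7.70 (6.96 to 8.53) in the NCKO-labelled library and 4.45 (4.05 to 4.90) in the F/F library. Without the Fam163a and Slit3 cluster it was 11.7 (10.3 to 13.4) in the NCKO-labelled library and 14.5 (12.1 to 17.5) in the F/F library, which turned the order of the libraries, and the layer 5-like (12.6 and 21) and layer 6-like ratios (9.11 and 13) were larger as well. Radial glia-like nuclei had 397 and 162 CPM of Grm5 and intermediate progenitor-like nuclei 60.4 and 19.7 CPM, so its level did not run in 1 direction along the lineage.
Grm3, a group II receptor that lowers cyclic AMP, was also present in radial glia-like nuclei, at 559 and 470.4 CPM, and low in intermediate progenitor-like nuclei, at 20.1 and 11.2 CPM. It measured 30.7 and 26.8 CPM in migrating-like nuclei and then 1117 and 1119 CPM in layer 6-like, 643 and 587 CPM in layer 5-like and 190.1 and 204 CPM in upper-layer-like nuclei. The layer 6-like ratio over migrating-like nuclei was 36.4 (27.9 to 48.4) in the NCKO-labelled library and 41.7 (31.1 to 57.3) in the F/F library. Both genes had high levels in astrocyte-like nuclei, where Grm3 measured 2226 and 2448 CPM and Grm5 2982 and 2679.6 CPM over 164 and 72 nuclei.

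Of the group III receptors, which sit mostly on axon terminals, Grm7 and Grm8 were higher in all 3 settled populations. Grm8 measured 256 against 8.93 CPM in the NCKO-labelled library and 261 against 9.53 CPM in the F/F library in upper-layer-like against migrating-like nuclei, where it had 16 UMIs in each library. The ratio was 28.6 (17.6 to 50.2) in the NCKO-labelled library and 27.4 (16.8 to 48.1) in the F/F library. Layer 5-like nuclei had the most of the 3, at 399 and 449 CPM.
Grm7 measured 1605 and 1696 CPM in layer 5-like, 1308 and 1283 CPM in upper-layer-like and 365 and 324 CPM in layer 6-like nuclei, against 143 and 185 CPM in migrating-like nuclei. The upper-layer-like ratio was 9.11 (8.05 to 10.4) in the NCKO-labelled library and 6.95 (6.21 to 7.81) in the F/F library, and without the Fam163a and Slit3 cluster 15.5 (13.1 to 18.6) in the NCKO-labelled library and 16.3 (13.5 to 19.8) in the F/F library. Without it the layer 5-like ratios were 19.1 and 21.5, and the layer 6-like ratios 4.33 and 4.12. The layer 6-like call reversed at resolution 0.5, to log2 ratios of -0.74 in the NCKO-labelled library and -1.14 in the F/F library. Grm4 and Grm2 were sparse, with 984 and 441 UMIs in all nuclei. Grm2 was called higher in upper-layer-like nuclei (12.6 and 16.2 CPM) over 3 UMIs in migrating-like nuclei of each library (1.67 and 1.79 CPM), and its ratios of 7.52 and 9.05 have intervals that reach from 2.51 to 37 and from 3.02 to 44.5. Without the Fam163a and Slit3 cluster, 1 and 3 UMIs were left in migrating-like nuclei, and the Grm2 ratio was 19.6 (3.45 to 781) in the NCKO-labelled library and 7.6 (2.54 to 37.4) in the F/F library.

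Of the vesicular transporters, Slc17a6 was called lower in all 3 settled populations than in migrating-like nuclei. Slc17a7 was called higher in layer 6-like nuclei only. In radial glia-like nuclei Slc17a6 measured 2.0 and 0 CPM in the NCKO-labelled and F/F libraries, from 1 and 0 UMIs. Intermediate progenitor-like nuclei had 508 and 495 CPM, migrating-like nuclei 299 and 254 CPM and upper-layer-like nuclei 24.7 and 68.7 CPM. In layer 5-like, layer 6-like and subplate-like nuclei it measured 7.05 and 7.41 CPM, 8.05 and 8.47 CPM and 5.01 and 19.1 CPM. Its level was thus low in the deep layers and the subplate in both libraries. The intermediate progenitor-like class held 88 and 150 nuclei, fewer than 100 in the NCKO-labelled library, and joined unlike clusters. The cluster led by Eomes and Mfap4 (66 and 127 nuclei) had 641 and 575 CPM of Slc17a6, and that led by Celsr1 and Gm29260 (22 and 23 nuclei) had no UMI, which allows up to 89.4 and 74.4 CPM.
The ratio of upper-layer-like over migrating-like nuclei for Slc17a6 was 0.0824 (0.0702 to 0.0964) in the NCKO-labelled library and 0.270 (0.237 to 0.308) in the F/F library. In layer 6-like nuclei it was 0.0269 (0.0187 to 0.0375) in the NCKO-labelled library and 0.0333 (0.0213 to 0.0498) in the F/F library. The migrating-like clusters were not alike in this gene: the cluster led by 2600014E21Rik and Sema3c had 616 and 517 CPM, and that of Fam163a and Slit3 had 55.4 and 141 CPM.

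Slc17a7 was low throughout. Intermediate progenitor-like nuclei had 15.1 and 5.62 CPM, migrating-like nuclei 20.1 and 25.6 CPM, upper-layer-like nuclei 48.7 and 33.9 CPM and layer 5-like nuclei 32.2 and 29.6 CPM. Layer 6-like and subplate-like nuclei had the most, at 61.8 and 44.4 CPM and 68.9 and 74.2 CPM. It was called higher in layer 6-like nuclei, at a ratio over migrating-like nuclei of 3.07 (2.17 to 4.48) in the NCKO-labelled library and 1.73 (1.22 to 2.50) in the F/F library. In upper-layer-like nuclei the ratios were 2.42 and 1.32 and the gene was not called.
Summed, the 2 transporters were lower in settled nuclei. Intermediate progenitor-like nuclei had a sum of 523 and 500.2 CPM. It was 319 and 279.9 CPM in migrating-like, 73.3 and 103 CPM in upper-layer-like, 39.2 and 37.0 CPM in layer 5-like and 69.8 and 52.8 CPM in layer 6-like nuclei. Slc17a6 made up 97.1% and 98.9% of this sum in intermediate progenitor-like, 93.7% and 90.9% in migrating-like, 33.6% and 67% in upper-layer-like, 18% and 20% in layer 5-like and 11.5% and 16% in layer 6-like nuclei.

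**Figure D4:**
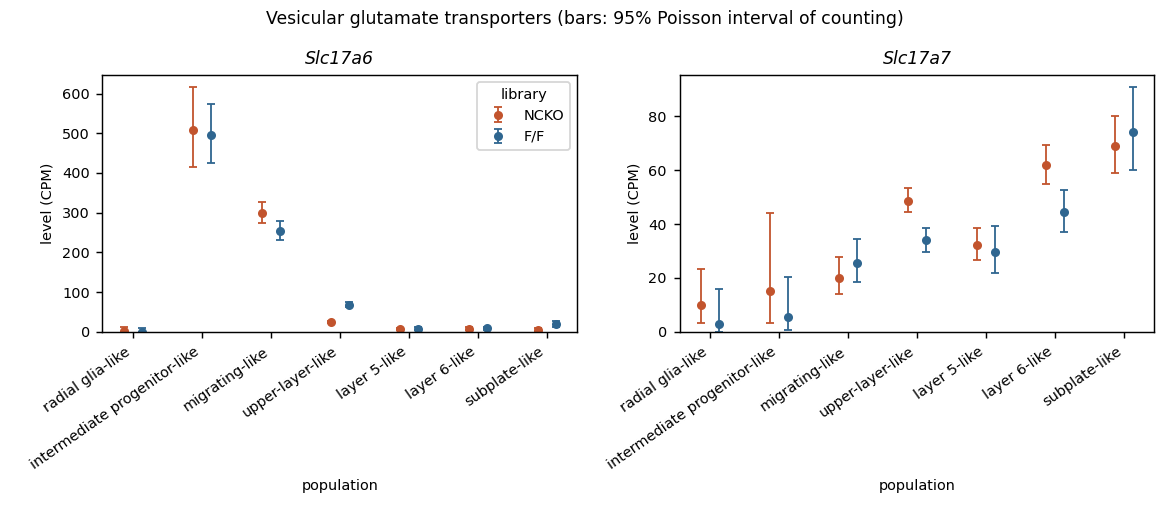
Level (CPM) of Slc17a6 (left) and Slc17a7 (right) in 7 excitatory lineage populations, with the NCKO-labelled library left of the F/F library and bars for the 95% Poisson interval of counting. Slc17a6 is high in intermediate progenitor-like nuclei (508 and 495 CPM) and migrating-like nuclei (299 and 254 CPM), and Slc17a7 is highest in subplate-like nuclei (68.9 and 74.2 CPM), on an axis with a much smaller range.

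Counted per nucleus, with every nucleus thinned to 1000 UMIs so that depth was equal, Slc17a6 was found in 23.5% (20.3 to 26.9) of 668 nuclei in the NCKO-labelled library and 19.9% (16.6 to 23.5) of 548 in the F/F library for migrating-like nuclei. For upper-layer-like nuclei it was 2.35% (1.73 to 3.12) of 1957 nuclei in the NCKO-labelled library and 7.23% (5.96 to 8.67) of 1480 in the F/F library. Striatal-like nuclei, GABAergic neurons that should lack the gene, gave 0.299% and 0.296%, which serves as the background of free RNA. The shares in layer 5-like (0.709% and 0.922%) and layer 6-like nuclei (0.408% and 0.849%) were near that background.
Slc17a7 was found in 2.54% and 2.92% of migrating-like, 4.34% and 3.58% of upper-layer-like, 6.33% and 4.07% of layer 6-like and 7.06% and 5.43% of subplate-like nuclei, against 0.499% and 0.148% of striatal-like nuclei. Both transporters in 1 nucleus were found in 3 of 668 and 2 of 548 migrating-like nuclei, and in 1 of 1957 and 2 of 1480 upper-layer-like nuclei. Without thinning, Slc17a6 was found in 42% and 44.4% of migrating-like nuclei and 9.30% and 22.9% of upper-layer-like nuclei, against 1.49% and 3.83% of striatal-like nuclei. At most 28 nuclei of a population fell below 1000 UMIs and were left out.

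Interneuron-like nuclei carried a receptor set unlike that of upper-layer-like nuclei, a comparison chosen after seeing the data. Of 32 measured genes, 15 were called higher and 6 lower in MGE-derived-like over upper-layer-like nuclei (6.84% and 6.50% of all 11174 genes). In CGE-derived-like nuclei 7 of 31 were called higher and 10 lower (6.28% and 9.37% of all 10494 genes). The median log2 ratio of the measured genes was 0.24 and 0.46 in MGE-derived-like and -0.29 and -0.06 in CGE-derived-like nuclei of the NCKO-labelled and F/F libraries, beside 0.07 and 0.06, and 0.10 and 0.05, over all genes.

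Among the kainate subunits, Grik1 was far higher in both interneuron-like populations. It measured 1741 and 1412 CPM in MGE-derived-like and 567 and 369.7 CPM in CGE-derived-like nuclei, against 33.5 and 24.8 CPM in upper-layer-like nuclei. The MGE-derived-like ratio was 52.1 (46.4 to 58.6) in the NCKO-labelled library and 57 (49.1 to 66.7) in the F/F library. Neto1, a kainate receptor auxiliary subunit, was higher as well, at 1127 and 900 CPM in MGE-derived-like and 289.9 and 218 CPM in CGE-derived-like nuclei, against 17.7 and 14.5 CPM in upper-layer-like nuclei.
The AMPA subunits Gria1 and Gria4 were both higher in MGE-derived-like nuclei. Gria1 measured 4134 and 4241 CPM, against 353 and 298 CPM in upper-layer-like nuclei, a ratio of 11.7 (11.3 to 12.2) in the NCKO-labelled library and 14.2 (13.6 to 14.9) in the F/F library. Gria4 measured 2462 and 2734 CPM, against 828 and 743 CPM, at ratios of 2.97 and 3.68. Gria2 was lower, at 1138 and 1148 CPM in MGE-derived-like and 905 and 879 CPM in CGE-derived-like nuclei, against 1794 and 2082 CPM.
By share, Gria2 was 14.1% and 13.6% of AMPA receptor UMIs in MGE-derived-like and 35.5% and 36.1% in CGE-derived-like nuclei, against 55.9% and 63.2% in upper-layer-like nuclei, and Gria1 was 51.1% and 50.1% in MGE-derived-like nuclei. Receptors without Gria2 pass calcium; whether these nuclei make such receptors was not measured.

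Of the NMDA subunits, Grin3a and Grin2d were higher in interneuron-like nuclei. Grin3a measured 526 and 462 CPM in MGE-derived-like nuclei, against 40.2 and 21.4 CPM in upper-layer-like nuclei, at ratios of 13.1 and 21.6. The MGE-derived-like clusters were not alike in Grin3a. The cluster led by Gm31218 and Trhde had 925 and 1073 CPM, and the largest, led by Nxph2 and Lhx6, had 108 and 71.5 CPM. The cluster led by Sfta3-ps and Tacr1 had 318 and 281 CPM. Grin2d measured 93.7 and 76.7 CPM in CGE-derived-like nuclei and 31.4 and 33.4 CPM in MGE-derived-like nuclei, against 13.1 and 15.2 CPM in upper-layer-like nuclei. Grin3a was called higher in CGE-derived-like nuclei too (74.9 and 47.7 CPM), but its NCKO-labelled log2 ratio was -0.07 at resolution 0.5.
Grm5 was higher in MGE-derived-like nuclei (2614 and 2089 CPM) and lower in CGE-derived-like nuclei (485 and 296 CPM) than in upper-layer-like nuclei (1671 and 1223 CPM). Grm3 differed in the same way, at 813 and 802 CPM and 101 and 97.1 CPM, against 190.1 and 204 CPM. Grm7 was lower in both, at 659 and 638 CPM and 784 and 497 CPM, against 1308 and 1283 CPM. The MGE-derived-like clusters were not alike in Grm7 either. The largest, led by Nxph2 and Lhx6, had 172 and 108 CPM, and that led by Gm31218 and Trhde had 923 and 1103 CPM. The cluster led by Sfta3-ps and Tacr1 had 1046 and 1459 CPM, above the upper-layer-like level in the F/F library.
Cnih3 was lower in MGE-derived-like (13.5 and 16.9 CPM) and CGE-derived-like nuclei (18.7 and 6.81 CPM), against 70.5 and 72.9 CPM in upper-layer-like nuclei. Cacng3, by contrast, measured 169 and 206 CPM in MGE-derived-like nuclei, against 24 and 18.9 CPM in upper-layer-like nuclei. Slc17a7 was lower in both interneuron-like populations (8.13 and 3.12 CPM in MGE-derived-like nuclei), while Slc17a6 was at 24.7 and 21.9 CPM in MGE-derived-like nuclei. Most of its UMIs there, 59 of 88 and 28 of 49, came from the cluster led by Sfta3-ps and Tacr1 (79 and 37 nuclei, 109 and 101 CPM), and the largest cluster, led by Nxph2 and Lhx6, had 3.73 and 8.72 CPM.
Striatal-like nuclei had the highest level of 5 genes among the 10 populations in both libraries. Grm5 measured 3699 and 3343 CPM there, Grik2 3684 and 3845 CPM and Grid1 839 and 666 CPM. Grm4, sparse elsewhere, measured 43.2 and 39.9 CPM. The highest Grik2 level rested on 1 striatal-like cluster, led by Tac1 and Col25a1, with 4515 and 5049 CPM. The striatal-like cluster led by Drd2 and Penk had 1874 and 1910 CPM of Grik2, below layer 5-like nuclei (3428 and 2687 CPM).

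Between the labels, 270 pairs of gene and population had at least 50 UMIs over both libraries. Of these, 24 were called at least 1.5-fold higher and 10 at least 1.5-fold lower in the NCKO-labelled library. Called in at least 1 population were 19 of 32 measured genes. No share over all genes stands beside that count, so it is not read as a trait of these genes. The 34 calls spread unevenly. MGE-derived-like nuclei had 0 of 30 called, where 3.10% and 2.65% of all genes were called higher and lower. Upper-layer-like nuclei had 2 higher and 1 lower of 32 (1.48% and 2.79% of all genes), migrating-like nuclei 1 and 1 of 25 (5.44% and 5.26%), layer 5-like nuclei 0 and 1 of 27 (2.97% and 2.98%) and layer 6-like nuclei 1 and 1 of 31 (3.05% and 2.18%).
Subplate-like nuclei had 3 higher and 1 lower of 29 (4.99% and 3.66%), striatal-like nuclei 0 and 1 of 30 (2.43% and 2.01%) and CGE-derived-like nuclei 6 and 1 of 25 (6.75% and 3.83%). Radial glia-like nuclei had 5 higher and 2 lower of 16 (8.17% and 7.35%), and eminence progenitor-like nuclei 6 and 1 of 25 (4.86% and 3.67%). With at least 200 UMIs, 16 of 206 pairs were called, and no share over all genes was taken at that minimum. Each of the 34 called pairs had a counting interval that excluded 1, which says nothing of the spread between embryos. Long genes held many of these calls. Of the measured genes of at least 100 kb, CGE-derived-like nuclei had 6 called higher and 1 lower of 18. Eminence progenitor-like nuclei had 5 and 1 of 18, radial glia-like nuclei 5 and 2 of 11, but striatal-like nuclei 0 and 0 of 19. Between labels, the share over all genes of that length was not taken, and the part of gene length was not tested.

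**Figure D5:**
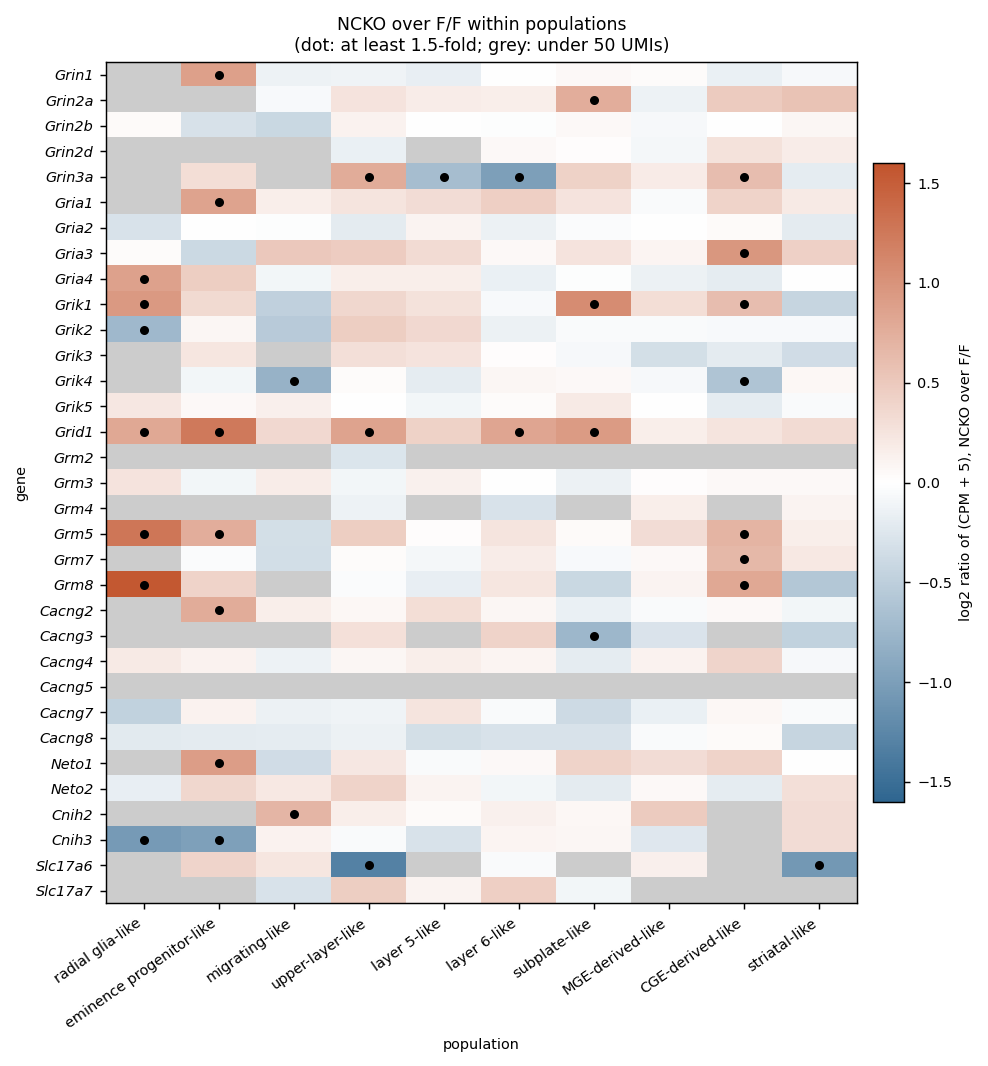
Log2 ratio of (CPM + 5) in the NCKO-labelled over the F/F library for each gene (rows) in 10 populations (columns); a dot marks at least 1.5-fold and grey a pair with under 50 UMIs. The Grid1 row is above 0 in all 10 columns, and the largest ratio is that of Grm8 in radial glia-like nuclei (3.18 (1.76 to 6.15)).

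In each of the 10 populations, the Grid1 level of the NCKO-labelled library was above that of the F/F library. All populations come from the same 2 libraries, so they do not repeat the comparison of the labels. The same holds for the counts of populations given below, and no share over all genes stands beside such counts. Its ratios over the F/F library ran between 1.12 and 2.46 with a median of 1.55, and the counting interval lay above 1 in 9 of 10 populations. In upper-layer-like nuclei it measured 507 CPM in the NCKO-labelled library and 278 CPM in the F/F library, a ratio of 1.82 (1.73 to 1.92). In eminence progenitor-like nuclei it measured 167 CPM in the NCKO-labelled library and 67.9 CPM in the F/F library, a ratio of 2.46 (1.85 to 3.31). That value rested on the cluster led by Top2a and Lockd (224 and 87.3 CPM), without which the Grid1 log2 ratio was 0.43.
Grid1 was also called higher in 3 more populations. Layer 6-like nuclei had 319.7 against 177 CPM with a ratio of 1.80 (1.63 to 1.99). Subplate-like nuclei had 423 against 220.1 CPM with a ratio of 1.92 (1.68 to 2.20), and radial glia-like nuclei 254 against 145 CPM with a ratio of 1.76 (1.26 to 2.49). Within the 4 upper-layer-like clusters the Grid1 ratios were 1.85 (1.72 to 2.0), 1.66 (1.49 to 1.85), 1.36 (1.21 to 1.52) and 1.78 (1.34 to 2.35). Each of these intervals lay above 1. The gene spans 763 kb of chromosome 14 from 34820108 to 35583379 (GRCm38, plus strand), and no other counted gene overlaps it.

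Slc17a6 was lower in upper-layer-like nuclei of the NCKO-labelled library, at 24.7 CPM in the NCKO-labelled library and 68.7 CPM in the F/F library, from 227 and 497 UMIs. The ratio was 0.359 (0.305 to 0.421). Within the 4 upper-layer-like clusters it was 0.337 (0.237 to 0.472), 0.535 (0.387 to 0.741), 0.314 (0.225 to 0.432) and 0.588 (0.402 to 0.842), each with an interval below 1.
The share of nuclei with a UMI followed, at 2.35% and 7.23% after thinning to 1000 UMIs, beside a striatal-like background of 0.299% and 0.296%. Without thinning, that background was lower in the NCKO-labelled library too. Slc17a6 had 3.9 against 18.5 CPM in the striatal-like cluster led by Tac1 and Col25a1. In that led by Drd2 and Penk it had 6.94 against 11.3 CPM. The part of free RNA in the upper-layer-like difference was not tested. In migrating-like nuclei Slc17a6 had 299 against 254 CPM, and its ratio of 1.18 (1.03 to 1.34) was not called. Slc17a7 in upper-layer-like nuclei measured 48.7 against 33.9 CPM, a ratio of 1.44 (1.23 to 1.69) that was not called either. The cluster led by Hs6st2 and Bcl6, which had the highest Slc17a6 level of the 4 (89.9 and 153 CPM), held 124 of 1958 upper-layer-like nuclei in the NCKO-labelled library and 296 of 1480 in the F/F library. In striatal-like nuclei Slc17a6 was called lower from 20 and 47 UMIs, and after thinning to 1000 UMIs the log2 ratio was 0.01. It was -0.45 without the cluster led by Tac1 and Col25a1.

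Grin3a differed in opposite directions between populations. In upper-layer-like nuclei it measured 40.2 CPM in the NCKO-labelled library and 21.4 CPM in the F/F library, a ratio of 1.87 (1.55 to 2.28). Within the 4 upper-layer-like clusters it was 1.86 (1.28 to 2.75), 1.44 (1.07 to 1.95), 1.5 (1.03 to 2.19) and 1.08 (0.180 to 4.74). When each cluster was given the weight it had in the F/F library, the Grin3a log2 ratio was 0.51 and no longer called.
Layer 5-like nuclei had 69.1 against 114 CPM of Grin3a, at a ratio of 0.609 (0.501 to 0.741). The cluster led by Tcerg1l and Pex5l held most of them (518 and 205 nuclei, 71.5 and 117 CPM), and the other, with 46 and 12 nuclei, had 8 and 1 UMIs.
Layer 6-like nuclei had 14.8 against 34.2 CPM of Grin3a, at a ratio of 0.432 (0.313 to 0.594). The cluster led by Rspo2 and Npy (79 and 57 nuclei) had 23.8 and 155 CPM. The largest cluster, led by Hs3st4 and Htr1f, had 14 (10.4 to 18.4) and 18.1 (13.0 to 24.6) CPM, and the third had 10.6 and 9.33 CPM. Without the Rspo2 and Npy cluster the log2 ratio was -0.25 and not called.
In CGE-derived-like nuclei it measured 74.9 against 47.7 CPM, a ratio of 1.57 (1.01 to 2.52) for Grin3a, which turned to a log2 ratio of -0.05 without doublet removal and -0.15 with all deposited barcodes.
In MGE-derived-like nuclei, where Grin3a was highest, it measured 526 against 462 CPM and was not called.

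Grm5 was called higher in 3 populations of the NCKO-labelled library. It measured 397 CPM in the NCKO-labelled library and 162 CPM in the F/F library in radial glia-like nuclei, from 198 and 57 UMIs, a ratio of 2.46 (1.82 to 3.36). In eminence progenitor-like nuclei the ratio was 1.69 (1.51 to 1.90) (795 against 469 CPM) and in CGE-derived-like nuclei 1.64 (1.37 to 1.96) (485 against 296 CPM). Without the Top2a and Lockd cluster the eminence progenitor-like log2 ratio of Grm5 was 0.43. Over the populations the ratio was above 1 in 9 of 10, with a median of 1.21.
Grm8 was higher in radial glia-like nuclei (126 against 39.7 CPM, 63 and 14 UMIs) and CGE-derived-like nuclei (202 against 114 CPM, ratio 1.77 (1.34 to 2.37)), and Grm7 in CGE-derived-like nuclei (784 against 497 CPM, ratio 1.58 (1.38 to 1.81)). Grm5 was far higher in astrocyte-like nuclei than in radial glia-like nuclei (2982 and 2679.6 CPM), and astrocyte-like nuclei were 1.67% of the NCKO-labelled and 1.17% of the F/F library; their part in the radial glia-like value was not tested.

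Radial glia-like nuclei were few, 234 and 147, and their other calls went both ways. Grik1 (212 against 108 CPM, ratio 1.97 (1.35 to 2.94)) and Gria4 (118 against 62.3 CPM, ratio 1.90 (1.14 to 3.25)) were higher. Grik2 (777 against 1289 CPM, ratio 0.603 (0.525 to 0.692)) and Cnih3 (92.2 against 196 CPM, ratio 0.471 (0.317 to 0.694)) were lower. Cnih3 was lower in eminence progenitor-like nuclei too, from 22 and 39 UMIs (18.6 against 41.4 CPM), with a log2 ratio of 0.10 without the Top2a and Lockd cluster.

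Among the ionotropic receptor genes, Gria1 was called in eminence progenitor-like nuclei (215 against 117 CPM, ratio 1.84 (1.47 to 2.33)), and it was above 1 in 8 of 9 populations with the interval above 1 in 7. Gria3 was called in CGE-derived-like nuclei from 69 and 19 UMIs (68 against 32.4 CPM, ratio 2.10 (1.25 to 3.70)) and was above 1 in 9 of 10 populations. Gria2 was called in none, with ratios between 0.817 and 1.08.
Grik1 was called in subplate-like (57.6 against 24.7 CPM, ratio 2.33 (1.57 to 3.56)) and CGE-derived-like nuclei (567 against 369.7 CPM, ratio 1.53 (1.31 to 1.80)). Grik4 was lower in migrating-like nuclei (39.1 against 71.5 CPM, ratio 0.547 (0.401 to 0.740)) and CGE-derived-like nuclei (81.8 against 128 CPM, ratio 0.641 (0.463 to 0.887)). Without the migrating-like cluster led by Adamts2 and Hs6st2 the Grik4 log2 ratio was -0.40 and not called. Grin2a was called higher in subplate-like nuclei (154 against 89.3 CPM, ratio 1.72 (1.39 to 2.14)), with a log2 ratio of -0.14 when clusters were built from the F/F library alone. Grin1 (35.4 against 17 CPM), Cacng2 (39.7 against 21.2 CPM) and Neto1 (61.6 against 30.8 CPM) were called higher in eminence progenitor-like nuclei from 16 to 73 UMIs a library. Without the Top2a and Lockd cluster the Neto1 log2 ratio was 0.12, and without the other eminence progenitor-like cluster that of Cacng2 was 0.52.
Cacng3 was lower in subplate-like nuclei (10.9 against 21.5 CPM) from 26 and 27 UMIs, and Cnih2 higher in migrating-like nuclei (43 against 25 CPM) from 77 and 42 UMIs. The Cnih2 call was lost without the Adamts2 and Hs6st2 cluster (0.48 on the log2 scale) and without 1 small migrating-like cluster (0.54). Of the measured genes, 13 were called in no population: Grin2b, Grin2d, Gria2, Grik3, Grik5, Grm2, Grm3, Grm4, Cacng4, Cacng7, Cacng8, Neto2 and Slc17a7. Cnih2 was above 1 in each of the 7 populations where it could be measured.

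Other genes of the glutamatergic synapse, in 4 lists without the 33 genes, differed between settled and migrating-like nuclei as follows. Of 26 measured postsynaptic scaffold and signalling genes, 10 were called higher and 2 lower in upper-layer-like nuclei, where 8.82% and 6.62% of all genes were. Their median log2 ratios were 0.44 and 0.37, beside -0.16 and -0.11 over all genes, which also stand beside the lists that follow. The scaffold gene Dlg2 measured 6686 against 955 and 5958 against 1769 CPM in upper-layer-like against migrating-like nuclei of the NCKO-labelled and F/F libraries, and Dlg1 130.2 against 244 and 149.6 against 310.3 CPM. Of 11 glutamate uptake and metabolism genes, 1 was called higher and 0 lower, with medians of 0.06 and 0.16; it was the glial transporter gene Slc1a3, at 159 against 66.4 and 142 against 67.3 CPM.
Of 19 further receptor, auxiliary and ligand genes, 9 were called higher and 1 lower, with medians of 0.01 and 0.42. The ligand gene Olfm3 measured 22 against 94.3 and 28.6 against 88.2 CPM. Of 24 genes of vesicle release, 7 were called higher and 1 lower, with medians of 0.06 and 0.15, among them Sv2b at 106 against 7.82 and 69.3 against 8.93 CPM. In layer 6-like nuclei the counts were 8 and 2 of 25, 0 and 2 of 10, 5 and 1 of 17, and 5 and 2 of 22 for these lists in the same order, beside 9.94% and 10.7% of all genes. In layer 5-like nuclei they were 10 and 4 of 25, 2 and 0 of 9, 4 and 3 of 14, and 7 and 1 of 22, beside 11.0% and 14.5% of all genes.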

How the data were processed

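Nuclear RNA of embryonic mouse neocortex was profiled with the 10x Genomics 3′ chemistry. The deposited matrices hold raw UMI counts for each gene and barcode. Per the file headers, the authors used Cell Ranger 6.1.0. The build was mm10, and Seurat was also used in a step not stated, per the submitters' processing notes. No source used here says whether the counting was stranded. If it was not, genes that overlap on opposite strands may share UMIs. Of the 33 genes, 12 overlap a counted gene, 2 of them on the same strand. Positions come from GENCODE vM21 and upstream sequences from RefSeq.

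Barcodes with under 500 genes (19 in the NCKO-labelled and 10 in the F/F library) were left out, as was 1 barcode of the F/F library with over 5% of mitochondrial UMIs. The highest doublet scores were removed, 0.8% per 1000 barcodes (924 and 336), using 2 simulated doublets per nucleus. Counts were scaled to 10000 and log-transformed. The 2000 most variable genes other than the 33 were reduced to 30 components, and a graph of 20 neighbours was clustered for both libraries together with the Leiden algorithm at resolution 1 (Python 3.11.15, pandas 2.3.3, numpy 2.4.6, scipy 1.17.1, with python-igraph 0.11.9 and leidenalg 0.10.2). A cluster took the class with the highest mean log2 fold of its markers, if that was at least 0.5, led by 0.1 and had 3 markers raised 1.5-fold. Of 52 clusters, 33 were named. The naming rule and the splitting of mixed clusters of at least 100 nuclei were settled after seeing the data. Alternatives covered pseudocounts, UMI minimums, fold, doublets, filters, clustering and depth.

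UMIs were summed per class and library into CPM. Intervals are exact 95% Poisson (levels), conditional binomial (ratios) and Clopper-Pearson (shares) intervals and cover counting error only. A call is at least 1.5-fold on (CPM + 5) with at least 50 UMIs, and the calculation was tested on simulated counts. All 33 genes are described, with values for those called or most abundant in their family; list genes named are among the 2 highest or lowest of their list. The 33 genes and the lists were chosen with earlier results of these data known.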

Additional observations from a re-analysis of the deposited data

Results flagged for a closer look

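Grin3a stood out because its log2 ratio of the NCKO-labelled over the F/F library had opposite signs in different populations. It was 0.77 in upper-layer-like and 0.60 in CGE-derived-like nuclei, and -0.68 in layer 5-like nuclei, while layer 6-like nuclei gave -0.99. Without 1 cluster, led by Rspo2 and Npy, the layer 6-like value was -0.25, and with clusters weighted as in the F/F library the upper-layer-like value was 0.51. The difference between the populations was not tested, since each label has 1 library.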

How the results depend on the processing

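No paired analysis was possible because each label has 1 library. Leaving out a replicate was not possible for the same reason. Of the 102 called log2 values of settled over migrating-like nuclei, 97 to 102 kept their sign under each alternative, as did 75 to 76 of the 76 interneuron values and 32 to 34 of the 34 values between labels (27 of 27 at resolution 0.5, which gave no eminence progenitor-like class). Fewer stayed past 1.5-fold: 82 to 102 of 102, 68 to 76 of 76 and 24 to 34 of 34 (19 of 27 at resolution 0.5), with the lowest numbers at resolution 0.5, at 1000 UMIs per nucleus and with all deposited barcodes. At a 2-fold limit 84, 55 and 7 stayed past it. Leaving out each cluster of a class in turn, a setting chosen after seeing the data, ended or turned 10 of the 16 calls between labels in classes of more than 1 cluster.

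The signs that turned were these. For Grin3a in upper-layer-like over migrating-like nuclei the log2 ratio was -0.82 (all deposited barcodes) and -0.63 (the 33 genes kept in the clustering) in the NCKO-labelled library, and -0.14 (no doublet removal), -0.48 (all barcodes), -0.26 (genes kept) and -0.21 (clusters from the F/F library alone) in the F/F library. At resolution 0.5, layer 5-like nuclei gave -0.24 for Grin3a in the NCKO-labelled library and 0.03 and 0.53 for Gria3 in the NCKO-labelled and F/F libraries. Layer 6-like nuclei gave -0.74 and -1.14 for Grm7, and CGE-derived-like over upper-layer-like nuclei gave -0.07 for Grin3a in the NCKO-labelled library. For Grin2a in layer 6-like nuclei of the F/F library it was 0.15 at resolution 2 and 0.14 without the Fam163a and Slit3 cluster. Between labels, Grin2a in subplate-like nuclei gave -0.14 (clusters from the F/F library alone), Grin3a in CGE-derived-like nuclei gave -0.05 (no doublet removal) and -0.15 (all barcodes), and Slc17a6 in striatal-like nuclei gave 0.01 (1000 UMIs per nucleus). Without 1 cluster, Grin3a in layer 5-like nuclei gave 0.81 and Cnih3 in eminence progenitor-like nuclei gave 0.10. The cause was not tested. With 1000 UMIs per nucleus, the Slc17a6 share of the transporters in CGE-derived-like nuclei of the F/F library had no value, since neither gene had a UMI.

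Counts moved by over 1.5 times as follows. With calls at 2-fold, 7 genes were higher in upper-layer-like nuclei, 3 lower in layer 5-like nuclei, 9 higher in MGE-derived-like nuclei, and 4 higher and 6 lower in CGE-derived-like nuclei. At resolution 0.5, 4 were lower in upper-layer-like and 8 in layer 6-like nuclei, and with 1000 UMIs per nucleus 3 were higher in CGE-derived-like nuclei. Between labels, pairs called higher numbered 13 with at least 200 UMIs and 4 at 2-fold. Pairs called lower numbered 6 with a pseudocount of 20 CPM, 16 with no minimum, 3 with at least 200 UMIs and 3 at 2-fold. Of the 20 counts for single populations, most of them small, 10 moved by over 1.5 times with 1000 UMIs per nucleus and 10 with at least 200 UMIs, 8 at resolution 2, 7 without doublet removal, 7 with all barcodes and 14 at 2-fold. Of 60 levels, 12 moved that far with 1000 UMIs per nucleus, 11 with all barcodes and 6 without doublet removal, and of 20 shares of nuclei 10 moved without doublet removal.

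Depth limited the sparse genes: Cacng5, Grm2 and Grm4 had 428, 441 and 984 UMIs in all nuclei, so small differences in them were not detectable at this depth.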
